A study of Mus musculus with 6 samples.

Results

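The cardiac transcription factors described here are 10 genes, Nkx2-5, Gata4, Gata6, Tbx5, Tbx20, Mef2a, Mef2c, Mef2d, Hand2 and Hopx, chosen by name as regulators of cardiomyocyte identity. All 10 were among the 14133 genes of the deposited table of mouse heart RNA, and all 10 passed the filter on low values with 12516 genes in total. The hearts came from C57BL/6 mice at 1 month of age. Every mouse carried floxed alleles of Trx1 (gene symbol Txn1, encoding thioredoxin-1, a small protein that reduces disulfide bonds). The 3 controls (replicates 3, 4 and 5) had the genotype Trx1 flox/flox, without Cre. The 3 libraries labelled knockout (replicates 6, 7 and 8) had the genotype Trx1 flox/flox/MHC-Cre, with Cre recombinase under the Myh6 promoter, which is active in cardiomyocytes. Cre without floxed alleles was not analysed here, so effects of Cre and of the deletion cannot be told apart. The labels do not say whether each library is a separate animal, so p-values measure the spread between these samples.

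Cardiomyocyte identity rests on a small set of DNA-binding proteins that occupy shared enhancers and activate each other's genes. NKX2-5 is a homeodomain protein, GATA4 and GATA6 are zinc finger proteins, TBX5 and TBX20 are T-box proteins, HAND2 is a basic helix-loop-helix protein, and the MEF2 proteins carry a MADS box. HOPX is a small homeodomain protein that does not bind DNA itself. In the mouse heart it acts downstream of Nkx2-5 and limits serum response factor, which binds CArG boxes.

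The promoters of the 3 factors whose RNA passed the test between the groups are shown so that the start sites and the motifs of these same protein families can be read beside the values. RefSeq (GRCm38.p6) gave promoters for 7 of the 10 genes, 10 in all. Each runs from 250 bases before the start site to 50 after it and is written 5′ to 3′ along the gene, here always on the minus strand. Capitals mark matches to the GATA motif (AGATAA, also counted with T as its first base, G as its last base, or both), the NKX2-5 motif (TNAAGTG), the T-box motif (AGGTGT), the MEF2 motif and the CArG box, searched on both strands.
Nkx2-5, chr17:26841516-26841815: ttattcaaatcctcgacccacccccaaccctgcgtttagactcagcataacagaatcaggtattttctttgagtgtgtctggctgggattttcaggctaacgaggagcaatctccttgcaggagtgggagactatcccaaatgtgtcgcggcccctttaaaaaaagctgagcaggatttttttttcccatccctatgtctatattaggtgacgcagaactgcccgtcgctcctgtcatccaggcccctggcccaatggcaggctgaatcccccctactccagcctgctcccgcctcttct
Tbx20, chr9:24774254-24774553: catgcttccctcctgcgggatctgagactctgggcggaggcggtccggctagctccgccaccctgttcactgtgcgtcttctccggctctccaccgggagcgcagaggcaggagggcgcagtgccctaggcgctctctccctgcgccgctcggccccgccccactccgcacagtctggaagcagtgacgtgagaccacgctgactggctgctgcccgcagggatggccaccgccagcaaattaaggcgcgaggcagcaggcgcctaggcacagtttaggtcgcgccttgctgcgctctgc
Hopx, upstream start, chr5:77115074-77115373: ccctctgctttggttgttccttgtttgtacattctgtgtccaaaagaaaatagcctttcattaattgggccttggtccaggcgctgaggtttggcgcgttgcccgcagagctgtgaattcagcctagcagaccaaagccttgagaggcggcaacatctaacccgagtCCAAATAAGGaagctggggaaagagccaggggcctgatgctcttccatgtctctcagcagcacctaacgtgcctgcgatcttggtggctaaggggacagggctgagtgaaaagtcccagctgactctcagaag
Hopx, downstream start, chr5:77095218-77095517: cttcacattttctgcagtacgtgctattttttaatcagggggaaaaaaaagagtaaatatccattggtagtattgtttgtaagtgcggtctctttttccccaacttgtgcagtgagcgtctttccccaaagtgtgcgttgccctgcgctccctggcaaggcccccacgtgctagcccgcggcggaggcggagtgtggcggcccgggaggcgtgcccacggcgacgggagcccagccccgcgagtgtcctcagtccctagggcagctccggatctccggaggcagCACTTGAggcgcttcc
The Nkx2-5 and Tbx20 windows held no match to these 5 motifs. The Nkx2-5 window lies inside the RefSeq span of that gene, whose 5′ edge on the minus strand is at 26844988. It does not cover that edge. The upstream Hopx window held 1 CArG box, CCAAATAAGG, whose first base lies at position -83 from the start site, and 1.63% of all 32851 promoters of this length in the table held such a match. The downstream Hopx window held 1 NKX2-5 motif on the opposite strand, CACTTGA, from position 35 after the start, and 11.5% of all promoters held one. That match overlaps an E-box (CANNTG), which 72.3% of promoters held. Among the other members, the Hand2 window held 2 GATA motifs (29.8% of all promoters held at least 1), the Mef2a window 1 MEF2 motif (3.19%) and 1 of the 3 Mef2c windows 1 T-box motif (13.7%). Gata4, Gata6 and Tbx5 were not among the sequences matched.

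The recovered reads came to between 8347636 and 13705281 per library. The members had between 214 and 1867 reads each per library. Poisson counting error was 0.040 to 0.087 log2 per library, taken over each gene and group, and reached the SD between libraries in 2 of 20 cases, Tbx20 in the libraries labelled knockout (0.070 against 0.048) and Nkx2-5 in the controls (0.046 against 0.046). For Tbx20, Mef2a, Mef2c and Mef2d the recovered values were read as averages over transcripts and not as counts. Their counting error is therefore only a rough guide. Txn1, the targeted gene, stood at 6.640, 6.996 and 7.042 log2 CPM (log2 of read counts scaled to library size) in controls 3, 4 and 5, in that order. In labelled knockout replicates 6, 7 and 8 it stood at 6.950, 6.902 and 7.132 log2 CPM. The groups overlapped and the log2 fold change was 0.10 (95% interval -0.22 to 0.42, limma adjusted p = 0.72). The RNA of the targeted gene therefore did not check the labels, and all directions below are those of the libraries labelled knockout relative to control. Over all tested genes 1209 (9.66%) passed the test, 600 higher (4.79%) and 609 lower (4.87%). When each library was rescaled to the same CPM sum the split was 856 higher and 447 lower, and without replicate 8 it was 1010 and 1175.

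Of the 10 factors, Tbx20 and Nkx2-5 rose, Hopx fell, and 7 did not pass the test (limma with an intensity trend, Benjamini-Hochberg adjustment over all tested genes, threshold 0.05). These 3 of 10 calls stand beside 9.66% over all tested genes. When genes had to average 3 log2 CPM, as all 10 members did, 12.2% were called. In 5 of the 10 the 3 values of one group lay wholly above or below the other, Tbx20, Nkx2-5, Hand2 and Gata4 above and Hopx below. Over all tested genes the groups did not overlap in 30.7%, with 14.4% higher and 16.2% lower. The members' median log2 fold change was -0.02 and that of all tested genes -0.01. Their median size of change, regardless of sign, was 0.28 log2 against 0.30 over all tested genes.

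**Figure D1:**
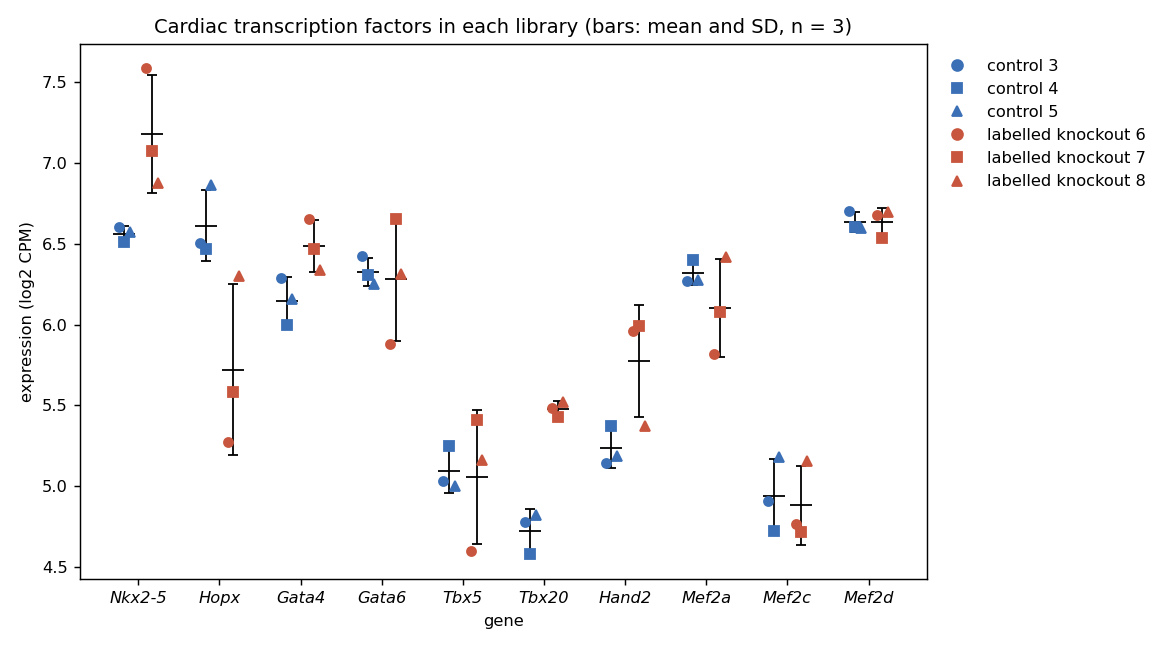
Expression in log2 CPM (vertical axis) of the 10 factors in each of the 6 libraries, with controls in blue, labelled knockout in red, and bars for the mean and SD of 3 libraries. Tbx20 and Nkx2-5 lie above the controls in all 3 libraries labelled knockout and Hopx below, while Mef2d is nearly level.

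Tbx20, a T-box factor that mouse studies link to maintenance of contraction in the adult heart, had the smallest p of the 10. Controls 3, 4 and 5 had 4.78, 4.58 and 4.82 log2 CPM of it, against 5.49, 5.43 and 5.52 log2 CPM in replicates 6, 7 and 8. The labelled knockout libraries lay closer together than the controls, and the groups were 0.60 log2 apart at their nearest values. From 4.73 ± 0.13 (SD, n = 3) to 5.48 ± 0.05, the log2 fold change was 0.75 ± 0.16 (SE, 1.68-fold, 95% interval 0.40 to 1.11, limma adjusted p = 0.013). Replicate 8 was as far from the control mean (1.74-fold) as replicates 6 and 7 (1.69-fold and 1.62-fold). That differs from the usual pattern in these libraries, since replicate 8 moved least in 899 of the 1209 called genes (74.4%). The call was lost without control replicate 3, 4 or 5 (limma adjusted p = 0.055, 0.084 and 0.054) and in a fit without the intensity trend (0.065), with log2 fold changes of 0.68 to 0.80 over the libraries left out in turn. Tbx20 lies on chromosome 9, 24720812 to 24774303 (GRCm38.p6).

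Tbx5, the other T-box member, is required for atrial and left ventricular development and for the conduction system. Its values were 5.035, 5.247 and 5.002 log2 CPM in the controls and 4.604, 5.409 and 5.161 log2 CPM in replicates 6, 7 and 8. Replicate 6 was the lowest of all 6 libraries and replicate 7 the highest, so the groups overlapped. The log2 fold change was -0.04 (95% interval -0.50 to 0.42, limma adjusted p = 0.94), with the opposite sign after rescaling to equal CPM sums (0.057) and without control replicate 4 or replicate 6 (0.04 and 0.19). The difference Tbx20 minus Tbx5 within a library does not depend on how libraries are scaled. It was -0.25, -0.67 and -0.18 log2 in the controls and 0.88, 0.02 and 0.36 log2 in replicates 6, 7 and 8, with no overlap. The difference was thus below 0 in the 3 controls and above 0 in the 3 libraries labelled knockout. Which of these genes had more RNA cannot be read from its sign. The Tbx20 values were read as averages over transcripts, those of Tbx5 were whole reads, and neither is per length.

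Nkx2-5, the homeobox factor at the centre of this set, stood at 6.60, 6.51 and 6.57 log2 CPM in the controls. It stood at 7.58, 7.07 and 6.87 log2 CPM in replicates 6, 7 and 8. The controls lay within an SD of 0.05, the labelled knockout libraries spread over an SD of 0.37, and the nearest values of the groups were 0.27 apart. Replicate 6 reached 2.03-fold of the control mean, replicate 7 1.42-fold and replicate 8 1.24-fold. The log2 fold change was 0.62 ± 0.17 (SE, 1.53-fold, 95% interval 0.24 to 0.99, limma adjusted p = 0.042). The call was lost without control 3, 4 or 5 (limma adjusted p = 0.12, 0.17 and 0.15) and without replicate 6 or 7 (0.079 and 0.062). Without replicate 6 the difference was 0.41 log2. The call was also lost with no filter on low values (limma adjusted p = 0.053), after quantile normalization (0.055) and without the trend (0.17). Nkx2-5 lies on chromosome 17, 26838664 to 26844988 (GRCm38.p6).

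Hopx moved in the other direction and by the most of the 10. Its values were 6.51, 6.46 and 6.86 log2 CPM in the controls and 5.27, 5.58 and 6.30 log2 CPM in replicates 6, 7 and 8. Replicates 6 and 7 had 0.40 and 0.49 of the control mean, and replicate 8 had 0.81 of it and came within 0.16 log2 of the lowest control. The log2 fold change was -0.89 ± 0.23 (SE, 1.85-fold lower, 95% interval -1.39 to -0.39, limma adjusted p = 0.028). Any 1 library left out except replicate 8 ended the call (limma adjusted p = 0.079, 0.084 and 0.15 without controls 3, 4 and 5, 0.082 and 0.086 without replicates 6 and 7), and so did the fit without the trend (0.15). Without replicate 8 the log2 fold change was -1.18. Hopx lies on chromosome 5, 77086986 to 77115123 (GRCm38.p6). Exons of Hopxos on the opposite strand overlap its exons by up to 388 bases, and the labels do not state whether reads were counted by strand.

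Within a library, Nkx2-5 minus Hopx was 0.09, 0.05 and -0.29 log2 in the controls, so both genes drew about as many reads. It was 2.31, 1.49 and 0.57 log2 in replicates 6, 7 and 8. All 3 lay above the controls, on average 2.84 times the control ratio, with replicate 6 the farthest and replicate 8 the nearest. This lack of overlap is no further result. It follows from the separate values, Nkx2-5 above and Hopx below the controls in all 3 libraries. The order 6, 7, 8 is the same for the separate values of Nkx2-5 and, reversed, of Hopx.

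**Figure D2:**
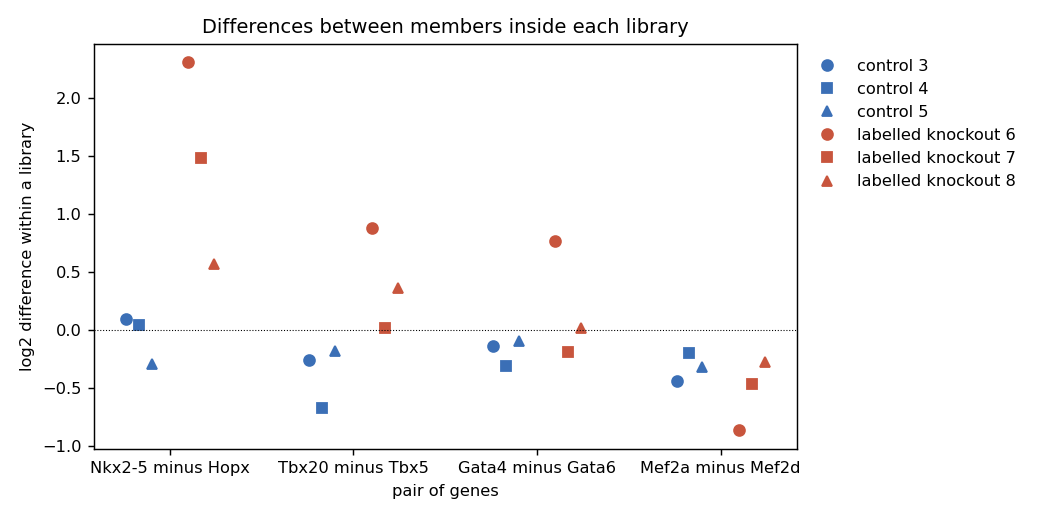
Log2 difference between pairs of members inside each library (vertical axis), which does not depend on library scaling, with controls in blue and labelled knockout in red. Nkx2-5 minus Hopx and Tbx20 minus Tbx5 do not overlap between the groups, while Gata4 minus Gata6 and Mef2a minus Mef2d do. For Nkx2-5 minus Hopx this follows from the separate values of both genes.

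Gata4, which in mice is needed for the growth response of the adult heart to pressure overload, did not pass the test. Its values were 6.29, 5.99 and 6.16 log2 CPM in the controls and 6.65, 6.47 and 6.34 log2 CPM in replicates 6, 7 and 8. The groups did not overlap, but the lowest labelled knockout library was only 0.05 log2 above the highest control. Between the groups Gata4 differed by 0.34 ± 0.15 log2 (SE, 95% interval 0.02 to 0.66, unadjusted p = 0.041 and limma adjusted p = 0.18). Gata6, the related zinc finger factor, stood at 6.42, 6.31 and 6.25 log2 CPM in the controls and at 5.88, 6.65 and 6.31 log2 CPM in replicates 6, 7 and 8. Replicates 6 and 7 lay on opposite sides of the controls. Its log2 fold change was -0.04 (95% interval -0.44 to 0.36, limma adjusted p = 0.92), and 0.052 after rescaling to equal CPM sums, 0.0053 without control 3 and 0.16 without replicate 6. The difference Gata4 minus Gata6 was -0.14, -0.31 and -0.09 log2 in the controls and 0.77, -0.19 and 0.02 log2 in replicates 6, 7 and 8, with overlap through replicate 7.

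Hand2, the basic helix-loop-helix factor of the right ventricle and outflow tract, stood at 5.14, 5.37 and 5.19 log2 CPM in the controls. It stood at 5.96, 5.99 and 5.37 log2 CPM in replicates 6, 7 and 8. Replicates 6 and 7 were clearly apart from the controls, whereas replicate 8 exceeded the highest control by 0.0020 log2. Its log2 fold change was 0.54 ± 0.19 (SE, 1.45-fold, 95% interval 0.13 to 0.95, unadjusted p = 0.014 and limma adjusted p = 0.094). It passed the test without replicate 8, with a log2 fold change of 0.74 (limma adjusted p = 0.0075), and in none of the other settings tried. Exons of Hand2os1 on the opposite strand overlap those of Hand2 by up to 246 bases. Opposite-strand exons also overlap those of Mef2d by up to 531 bases and Gata6 by up to 93 bases. For Mef2a the overlap is up to 302 bases, with the protein-coding gene Lysmd4.

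The MEF2 genes encode MADS-box factors whose activity is set largely through class IIa histone deacetylases and kinases. Mef2d, which in mice takes part in the fetal gene response to pressure overload, was the most even of the 10 between groups. Its values were 6.70, 6.60 and 6.60 log2 CPM in the controls and 6.68, 6.54 and 6.69 log2 CPM in replicates 6, 7 and 8. Its log2 fold change was 0.0031 with the narrowest interval of the 10, -0.28 to 0.29 (limma adjusted p = 0.99). Mef2a, a main MEF2 gene of the adult mouse heart, stood at 6.27, 6.40 and 6.28 log2 CPM in the controls and at 5.82, 6.08 and 6.42 log2 CPM in replicates 6, 7 and 8. Replicates 6 and 7 were below the controls and replicate 8 above them. For Mef2a the log2 fold change was -0.21 (95% interval -0.57 to 0.15, limma adjusted p = 0.47), with -0.069 without replicate 6 and -0.37 without replicate 8. Mef2c, needed for heart tube development and also expressed in endothelium, stood at 4.91, 4.73 and 5.18 log2 CPM in the controls and 4.77, 4.72 and 5.16 log2 CPM in replicates 6, 7 and 8. The groups covered nearly the same range. Its log2 fold change was -0.06 (95% interval -0.48 to 0.37, limma adjusted p = 0.90) and 0.038 after rescaling to equal CPM sums.

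**Figure D3:**
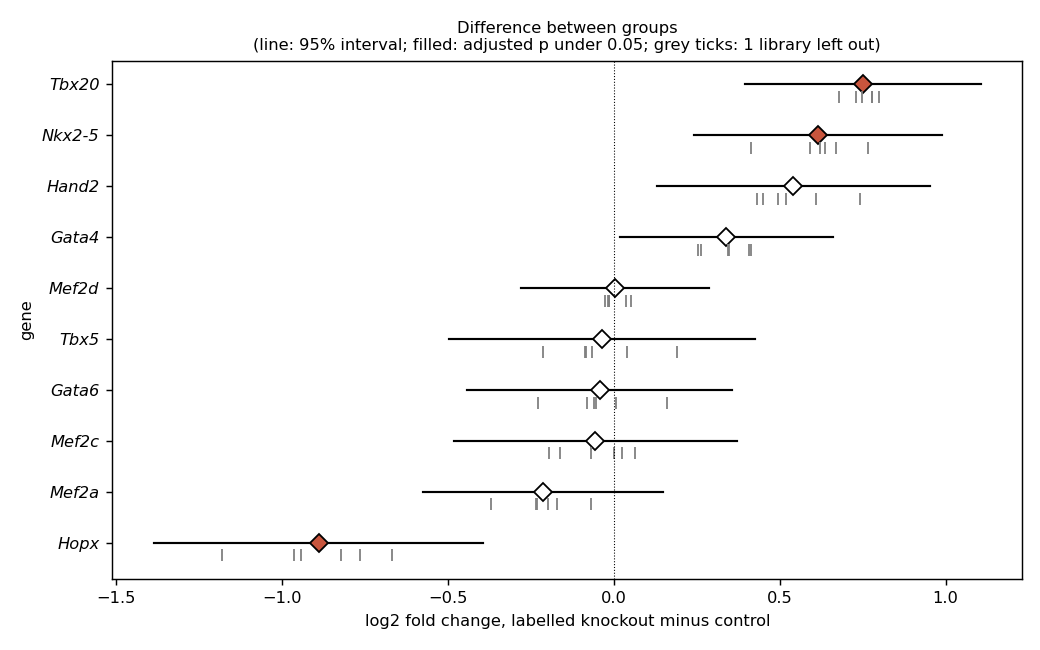
Log2 fold change of each factor, labelled knockout minus control (horizontal axis), with its 95% interval as a line, filled diamonds for an adjusted p under 0.05, and grey ticks for the values with 1 library left out. Tbx20 and Nkx2-5 lie to the right of 0, Hopx to the left, and the ticks of Tbx5, Gata6, Mef2c and Mef2d fall on both sides of 0.

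Levels can be compared between genes only per length of transcript. Divided by the mean length of the RefSeq NM transcripts found in GENCODE M21, Hopx led in the controls with 82.2 ± 12.9 CPM per kilobase (SD, n = 3), followed by Nkx2-5 with 61.9 ± 1.96 CPM per kilobase. Mef2d had 33.2 ± 1.41, Gata6 24.8 ± 1.52 and Gata4 20.9 ± 2.11 CPM per kilobase. Mef2a (18.4 ± 0.96) overlapped Gata4, and Hand2 (16.0 ± 1.38), Mef2c (11.3 ± 1.81), Tbx5 (8.67 ± 0.82) and Tbx20 (4.86 ± 0.43 CPM per kilobase) followed, each without overlap with its neighbour above, as was the case for the genes above Mef2a. In the libraries labelled knockout Nkx2-5 led with 96.9 ± 25.5 and Hopx was next by its mean with 46.0 ± 17.6 CPM per kilobase. Hopx overlapped Mef2d there, with 32.2 against 34.2 CPM per kilobase in replicate 6. The Tbx20 level of 8.18 ± 0.27 lay within the range of Tbx5 (8.65 ± 2.33 CPM per kilobase). The place of Tbx20 in the order is loose, because its annotated transcripts run from 1801 to 9091 bases, which would put the control level between 2.91 and 14.7 CPM per kilobase. That of Mef2d would lie between 18.4 and 56.1 and that of Mef2a between 14.4 and 29.9 CPM per kilobase. Lengths were found for 2 of the 3 RefSeq transcripts of Tbx20, 3 of the 7 of Mef2a and 2 of the 18 of Mef2c. Among the MEF2 genes Mef2d made up 50.9% to 54.7% of the level per kilobase in the controls, against 51.3% to 59.8% in labelled knockout libraries, with overlap.

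The spread among the libraries labelled knockout was larger than among controls in 9 of the 10 factors, Tbx20 being the exception. The median SD was 0.33 log2 against 0.13 in controls, and over all tested genes 0.31 against 0.19, with the larger SD among labelled knockout libraries in 70.0% of genes. Replicate 6 was the farthest from the control mean for Nkx2-5, Hopx, Gata4, Gata6, Tbx5 and Mef2a.

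Of 61 listed relatives (further GATA, T-box, NKX2, HAND, MEF2, Iroquois, HEY, TEAD, FOX and NFAT genes and others), 47 were in the table, 38 were tested, 1 rose and 1 fell, 5.26% called against 9.66% of all tested genes. The list's median log2 fold change was 0.04. Nfatc4, a calcineurin-dependent factor, went from 2.80 ± 0.14 to 3.68 ± 0.07 log2 CPM (SD, n = 3), 1.83-fold higher (limma adjusted p = 0.0498). Irx2, an Iroquois factor, went from 3.35 ± 0.30 to 1.66 ± 1.10 log2 CPM, a log2 fold change of -1.68 ± 0.49 (SE, limma adjusted p = 0.047). Both calls were marginal and were lost when any 1 control or replicate 6 was left out (adjusted p up to 0.17 for Nfatc4 and 0.19 for Irx2), and that of Nfatc4 also without replicate 7. Both were lost with no filter on low values (adjusted p = 0.063 and 0.066), after quantile normalization (0.052 and 0.059) and without the trend (0.057 and 0.14). Nfatc4 was also lost with limma-voom (0.054) and a robust trend (0.0505), and Irx2 after rescaling to equal CPM sums (0.051). Without replicate 6 the log2 fold change of Irx2 was -1.11.

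Within the families of the members, Tbx3, a repressor of working myocardium genes in the conduction system, stood at 4.66, 4.72 and 4.61 log2 CPM in the controls and 3.36, 4.12 and 4.18 log2 CPM in replicates 6, 7 and 8. The groups did not overlap, with a log2 fold change of -0.77 ± 0.24 (SE, limma adjusted p = 0.064), and the test was passed without replicate 8 (adjusted p = 0.023). Tbx2, the related repressor, overlapped between groups at -0.30 (log2 fold change, adjusted p = 0.49). Gata2, known in blood and endothelial cells, stood at 4.30 ± 0.01 and 3.84 ± 0.28 log2 CPM (limma adjusted p = 0.21). Tbx18, of the epicardium and sinus node, differed between the groups by -0.19 log2 (adjusted p = 0.80), Tbx1 by 0.06 and Tbx6 by 0.20 log2 (0.97 and 0.87). Gata1, Gata3, Gata5, Tbx15, Tbx21, Hand1 and Mef2b were at 18 reads or fewer in each library and below the filter.

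Cofactors of the factors were called at a share near that of all genes. Of 43 tested cofactors, chromatin partners and upstream kinases, 2 rose and 1 fell, 6.98% called against 9.66% of all tested genes, with a median log2 fold change of -0.10. Wwtr1, the TAZ coactivator of TEAD and TBX5, went from 5.67 ± 0.09 to 6.37 ± 0.30 log2 CPM (SD, n = 3), 1.63-fold higher (limma adjusted p = 0.021). Pdlim7, a LIM protein that binds TBX5, rose 1.66-fold (log2 fold change 0.73 ± 0.20, SE, adjusted p = 0.040). Mapk14, the p38 kinase that phosphorylates MEF2 proteins, fell by 0.62 on the log2 scale (limma adjusted p = 0.044). Each of these 3 calls was lost when any 1 control or replicate 7 was left out (adjusted p up to 0.11, 0.18 and 0.17 in that order), and those of Pdlim7 and Mapk14 also without replicate 6. Without the trend none of the 3 passed (limma adjusted p = 0.11, 0.15 and 0.095), nor did Pdlim7 with no filter on low values (0.051) or Mapk14 after rescaling to equal CPM sums (0.076). Without replicate 8, 9 of the 43 passed the test, beside 17.5% of all genes in that setting.

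Genes known as direct targets of these factors moved both ways. Of 31 tested targets, 6 rose and 6 fell, 38.7% called against 9.66% over all tested genes, with a median log2 fold change of -0.05. The list was chosen with earlier results of these data known. Among those that rose were Nppa and Nppb, the natriuretic peptide genes bound by NKX2-5, GATA4 and TBX5, Ankrd1, a titin-associated gene downstream of NKX2-5 and GATA4, Myh7, the beta myosin heavy chain gene, and Acta1, the skeletal actin gene. Their log2 fold changes ran from 1.37 ± 0.13 for Myh7 to 5.23 ± 0.44 for Nppa (SE), and these 5 calls held in all 15 other settings tried. Nppa stood at 8.50, 7.71 and 9.34 log2 CPM in the controls and 14.14, 14.47 and 12.61 log2 CPM in replicates 6, 7 and 8, with replicate 8 the lowest of its group.

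The 6 targets that fell were Tnni3, Atp2a2, Pln, Ryr2, Ckm and Myl7. Tnni3, cardiac troponin I and a GATA4 target, stood at 12.61, 12.54 and 12.69 log2 CPM in the controls and 11.60, 11.25 and 11.94 log2 CPM in replicates 6, 7 and 8. It fell by 1.01 on the log2 scale (SE 0.19, limma adjusted p = 0.0068), a call lost without control 5 (0.060) and without the trend (0.068). Further targets past the test were named after their values were seen. Atp2a2, the calcium pump of the sarcoplasmic reticulum, Pln, its inhibitor, and Ryr2, the calcium release channel, fell with log2 changes of -0.92, -0.74 and -0.67 (limma adjusted p = 0.039, 0.027 and 0.032). Ckm, a MEF2 target encoding muscle creatine kinase, fell as well (-0.98 log2, limma adjusted p = 0.013), and so did Myl7, the atrial myosin light chain gene (-2.53 log2, limma adjusted p = 0.023). Myom2, an M-band gene, rose 1.58-fold (adjusted p = 0.048). Apart from the 5 stable targets, each of these calls was lost without at least 1 control (highest adjusted p between 0.060 and 0.21), and 5 to 17 targets passed with 1 library left out. Without the trend none of these 7 passed (limma adjusted p = 0.068 to 0.17). Atp2a2 was also lost with no filter on low values (0.078), after rescaling to equal CPM sums (0.050) and after quantile normalization (0.12), Ryr2 and Myom2 with no filter (0.051 and 0.070), and Myl7 with a robust trend (0.21). Tnnt2, cardiac troponin T, differed by 0.05 log2 (limma adjusted p = 0.91), and the remaining targets that did not pass the test lay between -0.68 for Myh6 and 0.48 for Xirp1.

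**Figure D4:**
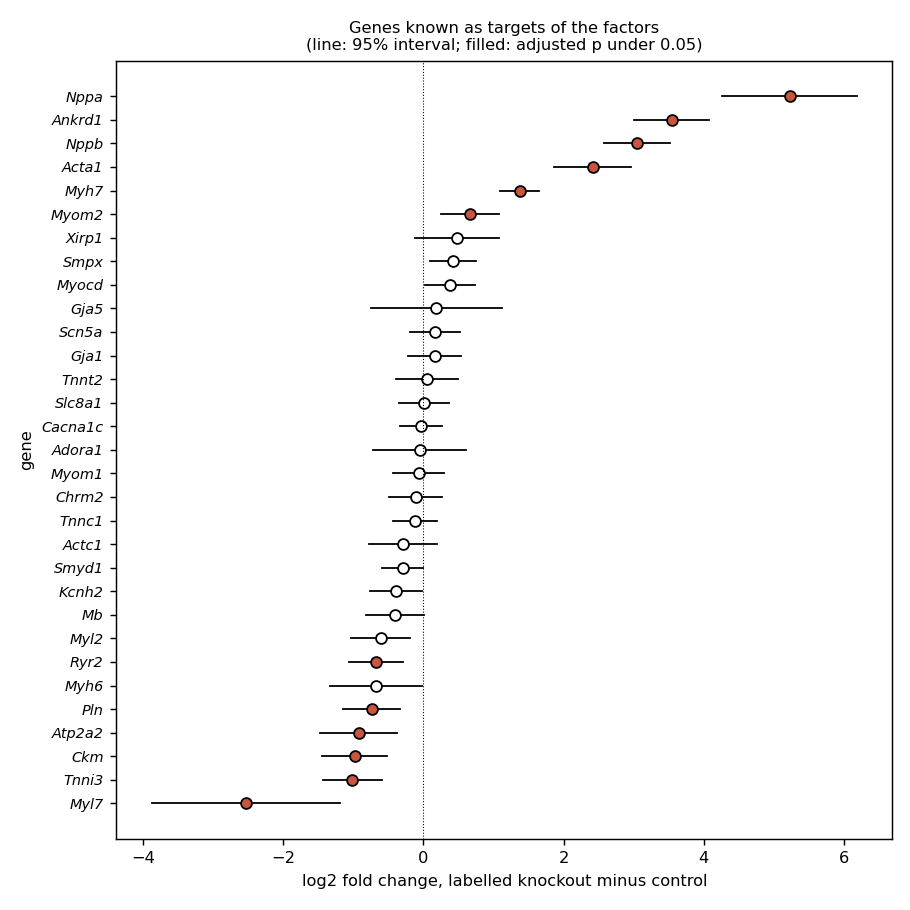
Log2 fold change of 31 genes known as targets of the factors, labelled knockout minus control (horizontal axis), with 95% intervals as lines and filled points for an adjusted p under 0.05. The 6 filled points on the right run up to 5.23 for Nppa and the 6 on the left down to -2.53 for Myl7.

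Several of the factors are not limited to cardiomyocytes, and fewer cells of a type and less RNA per cell cannot be told apart in whole heart RNA. Gata4, Gata6, Tbx20 and Hand2 are also known in cardiac fibroblasts or endocardium. Of 10 fibroblast markers, 6 rose and 0 fell, 60% called against 9.66% over all tested genes. The 6 were Col1a1, Col1a2, Dcn, Postn, Mfap5 and Pi16. Pdgfra, Lum, Tcf21 and Dpt did not pass the test, with log2 fold changes of 0.24 to 0.78. The list summed to 1334 to 1686 CPM in the controls, against 2472 to 6465 CPM with the knockout label. That sum is weighted to the genes with most RNA, in replicate 7 Col1a1, Col1a2 and Postn (10.79, 10.68 and 10.56 log2 CPM). Pdgfra, a receptor that marks fibroblasts, differed by 0.76 log2 (limma adjusted p = 0.12), by 0.38 without replicate 7, and by 1.05 without replicate 8, where it passed the test (limma adjusted p = 0.015). Of 11 cardiomyocyte markers, 5 fell and 0 rose, 45.5% called. The 5 were Tnni3, Ryr2, Pln, Ttn and Tcap. Tnni3, Ryr2 and Pln were already counted among the targets that fell, and Myh6, Tnnt2 and Myl2 are in both lists too. These are not separate observations. The summed level of the 11 went from 127489 to 137531 CPM in the controls to 79277 to 106454 CPM. Myh6, which did not pass the test (limma adjusted p = 0.18), made up 51.1% to 53.0% of that sum in the controls and 43.0% to 50.9% in the others, and Tnnt2 differed by 0.05 log2. Endothelial and endocardial markers summed to 1614 to 1690 CPM in the controls and 1290 to 1545 CPM in the others, with 1 of 11 higher and 1 lower and Pecam1 at a log2 fold change of 0.03. Smooth muscle and pericyte markers (1 of 8 higher, 0 lower) summed to 840 to 1134 and 1157 to 1778 CPM. Acta2 was the highest of the 8 in each library (9.12, 8.57 and 9.20 log2 CPM in the controls, 9.49, 9.37 and 10.23 in replicates 6, 7 and 8). It weighs most in these sums and did not pass the test (log2 fold change 0.74, limma adjusted p = 0.057). The other markers that did not pass lay between -0.37 for Myh11 and 0.39 for Tagln. Myh11 differed by -0.37 log2 (limma adjusted p = 0.44). Its value was -0.078 without control 3, -0.12 without replicate 7, -0.59 without control 5 and -0.61 without replicate 8. Macrophage markers (0 of 7 called with limma, 1 at an unadjusted p under 0.05) summed to 524 to 544 and 603 to 668 CPM. Epicardial markers (1 of 3 tested higher, 0 lower) summed to 12.5 to 14.4 and 18.8 to 35.3 CPM, with Wt1 at 0.19 (log2 fold change), and 2 of the 5, Upk3b and Upk1b, had no read in at least 1 library. In the other lists no marker in the table was at 0 in any library. The part of these cell types in the values of the factors was not tested.

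Atrial genes differed among libraries inside each group. Of 7 tested atrial markers, 2 fell and 1 rose, with summed levels of 167 to 467 CPM in the controls, against 81.9 to 206 CPM with the knockout label. Myl7, 1 of the 2 that fell, was already counted among the targets. It stood at 6.37, 5.59 and 7.49 log2 CPM in the controls and at 2.50, 3.74 and 5.62 log2 CPM in replicates 6, 7 and 8. Within each group Myl7 and Myl4, the atrial light chain genes, had the same order of libraries as Hopx (control 4, then 3, then 5, and replicate 6, then 7, then 8, from low to high), and the other 5 of the 7 tested atrial markers did not. The labels do not state how much atrial tissue each library held, and its part in the Hopx value was not tested.

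**Figure D5:**
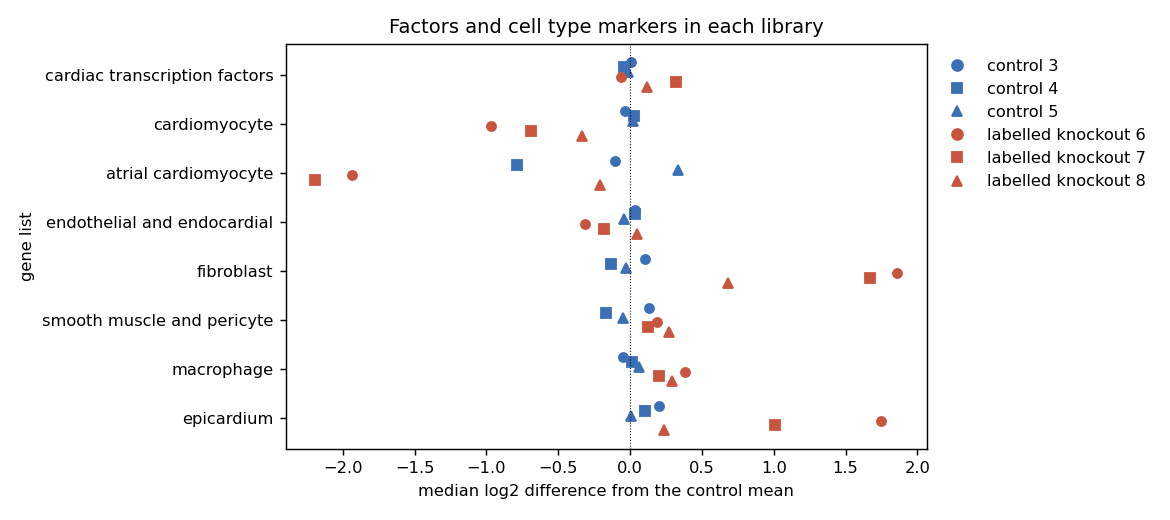
Median log2 difference from the control mean (horizontal axis) of the 10 factors and of the tested markers of each cell type, with 1 point per library, controls in blue and labelled knockout in red. The factors' medians stay between -0.06 and 0.32, while the cardiomyocyte medians of the libraries labelled knockout lie at -0.33 to -0.97 and the fibroblast medians at 0.68 to 1.86.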

How the data were processed

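Per the labels' protocols, heart RNA was prepared with TRIzol and made into Illumina libraries. The deposited table holds log2 CPM per gene and library. The submitters' processing notes name the build mm10 and the tools CASAVA, edgeR and HISAT2, with no version or role given. The deposited log2 values share a floor of -3.29, so a pseudocount (0.102 CPM) had been added. Steps above the floor gave the CPM of 1 read in each library and from it reads per gene, whole within 0.002 reads in all 6 libraries for 10128 of 14133 genes. Others held fractions, with denominators of 3 for Tbx20 and Mef2d, 7 for Mef2a and 6 for Mef2c, and were read as averages over transcripts. CPM summed to 919752 to 1042612 per library.

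Genes averaging 0 log2 CPM or more were tested with limma 3.58.1 in R 4.3.3 (group means, intensity trend, two-sided, Benjamini-Hochberg, threshold 0.05). The fit was first tried on simulated data with the control SD in both groups. That trial did not cover the larger spread seen among the libraries labelled knockout. Log2 fold changes are on the log2(CPM + pseudocount) scale. With 3 against 3 an exact permutation test cannot go below p = 0.1, and it gave 0.1 for Tbx20, Nkx2-5, Hopx, Gata4 and Hand2 and 0.4 to 1.0 for the others. The members and lists were chosen with earlier results of these data known, and the lists received no set test. Genes named by rule were all members, their family relatives in the table, up to 6 called genes per list by adjusted p, defining markers and Txn1. Further targets and markers were named after their values were seen. The alternatives were other filters, scalings, pseudocount and variance models, limma-voom on the recovered reads, and each library left out. Positions are from RefSeq on GRCm38.p6, the assembly of mm10, counted from 1. Annotated exon overlaps are from GENCODE M21.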

Additional observations from a re-analysis of the deposited data

How the results depend on the processing

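Under the 9 alternatives that kept all libraries, the log2 fold changes of Tbx20, Nkx2-5 and Hopx kept their direction, as they did with each library left out. The count of members that rose was 1 with no filter on low values or after quantile normalization and 0 without the intensity trend. Without that trend the count that fell was also 0 (2 and 1 as reported). In the reported fit, 5 members had an unadjusted limma p under 0.05, beside 24.8% of all tested genes. With 1 library left out, 0 to 3 members rose and 0 to 1 fell. Over all genes the fit without the trend called 71 higher and 50 lower, and leaving out 1 library gave 242 to 1010 higher and 161 to 1175 lower. Relatives called numbered 2 as reported, 1 when genes had to average 3 log2 CPM or with a robust trend, and 0 with no filter, after quantile normalization or without the trend (0 to 4 with 1 library left out). Without the trend 0 cofactors and 5 targets were called, and 0 to 9 and 5 to 17 with 1 library left out. Signs of log2 fold changes near 0 turned after rescaling to equal CPM sums for Gata6 (0.052), Tbx5 (0.057) and Mef2c (0.038). With 1 library left out the ranges were -0.23 to 0.16 for Gata6, -0.21 to 0.19 for Tbx5, -0.19 to 0.064 for Mef2c, -0.026 to 0.052 for Mef2d, -0.37 to -0.069 for Mef2a, -0.025 to 0.18 for Txn1, -0.024 to 0.11 for Tnnt2, -0.13 to 0.20 for Pecam1, 0.38 to 1.05 for Pdgfra, -0.61 to -0.078 for Myh11 and -0.093 to 0.36 for Wt1. The causes were not tested. No paired analysis was possible because the groups share no replicate numbers.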
